A study of Mus musculus with 47 samples.

Results

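Meningeal fibroblasts build the collagen sheets and the transport-active lining that cover the brain surface and follow its larger vessels. The expression of 8 genes grouped with this lining was followed in bulk RNA-seq of the hypothalamus, out of 14221 genes in the count table, and all 8 had a row there. Stab2 is known from another cell type. Slc22a6, Myoc, Fmod and Stab2 were selected on their Day 1 fold change, being among the genes with the largest falls, and Dcn, Lum, Ogn and Slc22a8 were added by symbol. The Day 1 differences of the 8 genes are therefore given as a description, without a test.

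The mice were male ob/ob animals, which lack functional leptin, so every group carried the same obesity-causing mutation. The labels give an age of 11 weeks in every group, also for the mice of Day 42. Whether this is the age at injection or at harvest is not given in the sources used here. Each received 1 intracerebroventricular injection of 3 ug FGF1 (fibroblast growth factor 1) or of vehicle, and the methods state that vehicle mice were pair-fed to the FGF1 mice. Each of the 47 libraries came from 1 mouse. On Day 1 after injection there were 10 FGF1 mice and 4 vehicle mice labelled non-diabetic. On Day 5 there were 9 FGF1 mice, 7 vehicle mice labelled non-diabetic and 7 vehicle mice labelled diabetic. The extraction protocol counts only as many vehicle mice on Day 5 as 1 of these labelled groups holds, and the methods exclude mice that did not become diabetic, so what set the labelled groups apart is not given in the sources used here. On Day 42 there were 5 FGF1 mice and 5 vehicle mice labelled non-diabetic. The tissue was a hypothalamic punch, and whether meninges were kept on it is not given in the sources used here. In such bulk tissue, fewer cells of a type and less RNA per cell cannot be told apart.

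Total counts per library ran from 19416026 to 47082403 on Day 1 and Day 42 with 1 exception, and from 7579695 to 12451642 on Day 5, except that FGF1 replicates 8 and 9 of Day 5 held 30009258 and 27922117. The exception on Day 1, replicate 1 of the FGF1 group of Day 1, held 1243280 counts. Each day had 1 library preparation code, so day and preparation cannot be told apart, and levels were tested only within a day. Values below are normalized counts, that is each count relative to the total of its library (CPM) after scaling by the trimmed mean of M values (TMM). A gene was called changed when its adjusted p-value in edgeR's quasi-likelihood test was under 0.05 and its log2 fold change (log2 FC) exceeded 0.5 in size.

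The 8 genes fall into 4 kinds. Dcn (decorin), Lum (lumican), Fmod (fibromodulin) and Ogn (osteoglycin) encode small leucine-rich proteoglycans, secreted proteins that bind collagen fibrils and set their spacing. Slc22a6 and Slc22a8 encode OAT1 and OAT3, carriers that take up organic anions in exchange for dicarboxylates and are best known from the kidney tubule. Myoc encodes myocilin, a secreted glycoprotein known from the outflow tissue of the eye. Stab2 encodes stabilin-2, a scavenger receptor for hyaluronan that is known from sinusoidal endothelium rather than from fibroblasts.

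Several of these genes are chromosomal neighbours in the GENCODE M21 annotation of GRCm38, and all 8 are protein-coding. Slc22a8 (chr19:8591254-8611835) ends 6.20 kb before Slc22a6 (chr19:8618039-8628299), both on the plus strand. Dcn (chr10:97479609-97518143) and Lum (chr10:97565128-97572703) lie 46.985 kb apart on the plus strand, and Stab2 (chr10:86841198-87008025, minus strand) is on the same chromosome but 10557 kb away. Ogn (chr13:49608046-49624501) lies 15.2 kb from Omd, in a row of proteoglycan genes that continues with Aspn and Ecm2. Fmod (chr1:134037254-134048277) and Myoc (chr1:162639155-162649693) are far apart on chromosome 1. Exons of Myoc and of Stab2 overlap an antisense gene that was not analysed here (Myocos and Gm16268), and whether counting used strand is not given in the sources used here.

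RefSeq promoters (GRCm38.p6, 250 bases before to 50 after the start) were at hand for 6 of the 8 genes, and not for Dcn and Lum. The neighbouring carriers are shown because both windows hold the letters GTTAAT, which are core letters of the site of HNF1, a factor that drives these carriers in kidney. The capitals mark that motif, searched on both strands, and the windows are chr19:8617746-8618045 for Slc22a6 and chr19:8592932-8593231 for Slc22a8, both plus strand. The Slc22a8 window follows the start that RefSeq gives, which lies inside the gene as GENCODE draws it.
Slc22a6: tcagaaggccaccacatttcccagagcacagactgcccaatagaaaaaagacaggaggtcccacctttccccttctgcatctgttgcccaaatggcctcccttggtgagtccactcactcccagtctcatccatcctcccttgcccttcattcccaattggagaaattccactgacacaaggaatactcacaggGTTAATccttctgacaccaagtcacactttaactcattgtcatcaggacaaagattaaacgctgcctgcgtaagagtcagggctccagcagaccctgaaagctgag
Slc22a8: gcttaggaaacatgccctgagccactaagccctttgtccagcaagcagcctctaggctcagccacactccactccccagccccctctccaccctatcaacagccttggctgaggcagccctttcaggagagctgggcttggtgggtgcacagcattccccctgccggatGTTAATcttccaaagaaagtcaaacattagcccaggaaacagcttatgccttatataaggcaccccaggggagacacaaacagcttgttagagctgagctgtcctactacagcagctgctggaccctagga
GTTAAT was present in 7.13% of 32544 promoter windows of the same length and in 2 of the 6 windows at hand. TATAAA was present in 13.6% of windows and in those of Myoc and Ogn, and the AP-1 letters TGANTCA in 7.79% of windows and in 0 of the 6. Fmod and Ogn are shown because these proteoglycan genes varied closely together between mice and because their windows share a run of 11 bases close to the start of transcription. The run, in capitals, was chosen after it was seen and was held, on either strand, by 10 of the 32544 windows. Other pairs of the 6 windows shared runs of the same length, so the run is a description only. The windows are chr1:134037004-134037303 for Fmod and chr13:49607765-49608064 for Ogn, both plus strand.
Fmod: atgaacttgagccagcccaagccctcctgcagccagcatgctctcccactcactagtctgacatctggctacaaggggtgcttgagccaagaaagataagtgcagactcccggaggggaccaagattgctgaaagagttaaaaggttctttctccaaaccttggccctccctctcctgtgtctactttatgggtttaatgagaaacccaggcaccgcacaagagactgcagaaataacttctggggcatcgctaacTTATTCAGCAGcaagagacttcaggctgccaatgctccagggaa
Ogn: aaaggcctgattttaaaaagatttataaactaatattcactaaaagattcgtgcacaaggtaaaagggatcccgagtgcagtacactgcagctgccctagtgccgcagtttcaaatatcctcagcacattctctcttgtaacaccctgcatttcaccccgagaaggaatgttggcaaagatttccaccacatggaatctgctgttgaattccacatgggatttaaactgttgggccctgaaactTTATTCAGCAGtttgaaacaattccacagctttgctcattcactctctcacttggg

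On Day 1 the 8 genes split. The transporters Slc22a6 and Slc22a8, the proteoglycans Fmod and Ogn, and Myoc and Stab2 were lower in each FGF1 mouse than in each vehicle mouse, whereas the proteoglycans Dcn and Lum had higher means with FGF1. Across all genes, 19.5% were called on Day 1, 11.5% higher and 8.05% lower, so that 58.8% of the called genes were higher, against 50.8% with DESeq2 size factors. In 6.81% of all genes every FGF1 mouse lay below every vehicle mouse, and in 7.56% every FGF1 mouse lay above. Nothing is read from the members' own counts here because this contrast chose them.

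Slc22a6 was at 8.05, 11.3, 4.35 and 6.04 normalized counts in the 4 vehicle mice, against a lowest value of 0.0531, a median of 0.451 and a highest of 2.44 in the 10 FGF1 mice. The groups did not overlap, and the log2 FC was -3.73 ± 0.51 (SE). The highest FGF1 value belonged to the library with the fewest counts and rested on 3 reads, with an exact Poisson 95% interval of 0.504 to 7.14 that covers counting error only. Without that library the highest value was 1.43 and the log2 FC -3.77. Slc22a8, its neighbour and relative, was at 30.1, 37.0, 17.97 and 25.7 in vehicle mice and between 8.82 and 17.0 in FGF1 mice, with a median of 11.5. The log2 FC of Slc22a8 was -1.20 ± 0.21 (SE), smaller in size than that of Slc22a6, and -1.19 without the same library.

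Fmod was at 53.7, 65.3, 36.5 and 41.6 normalized counts in vehicle mice and at 1.29 to 7.99 in FGF1 mice, with a median of 4.99. This was the most abundant of the 8 genes per kb of exon in Day 1 vehicle mice and the fourth in FGF1 mice, with a log2 FC of -3.36 ± 0.34 (SE), or -3.37 without the library with the fewest counts. Ogn was at 19.1, 43.7, 14.9 and 14.6 in vehicle mice and at 1.38 to 6.36 in FGF1 mice. Its log2 FC was -2.83 ± 0.40 (SE), -2.84 without the library with the fewest counts, and -2.32 without vehicle replicate 2, which stood well above the other 3 vehicle mice.

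Myoc was at 10.6, 17.8, 10.6 and 13.9 normalized counts in vehicle mice and at 0.714 to 3.26 in FGF1 mice, giving a log2 FC of -3.38 ± 0.23 (SE). Stab2 was at 3.54, 2.43, 1.88 and 3.50 in vehicle mice and at 0.0432 to 0.815 in FGF1 mice, giving a log2 FC of -3.36 ± 0.27 (SE). Both genes separated the groups in each mouse. The library with the fewest counts held the highest FGF1 value of both, and without it the highest was 2.25 for Myoc and 0.476 for Stab2, with log2 FC of -3.40 and -3.37. The lowest Stab2 value rested on 2 reads, with an exact Poisson 95% interval of 0.00523 to 0.156. Among all genes ordered by log2 FC on Day 1, Slc22a6 ranked 2, Myoc 7, Fmod 8 and Stab2 9 from the lowest, and Gm21663 followed at -3.19. Ogn ranked 16 and Slc22a8 230, so the additions by symbol were less extreme.

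Dcn was at 42.9, 70.5, 40.9 and 34.4 normalized counts in vehicle mice, and the FGF1 mice had a lowest value of 26.1, a median of 111 and a highest of 238. Of the 10 FGF1 mice, 8 lay above the highest vehicle mouse and 1 lay below the lowest, the library with the fewest counts. The log2 FC was 1.39 ± 0.33 (SE), and 1.47 without that library, when the lowest FGF1 value was 60.8. Lum was at 5.28, 6.69, 4.21 and 2.49 in vehicle mice and at 6.52 to 48.1 in FGF1 mice, with 9 of 10 FGF1 mice above the highest vehicle mouse. The log2 FC of Lum was 2.24 ± 0.37 (SE), and 2.29 without the same library, when the FGF1 values began at 7.92.

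**Figure D1:**
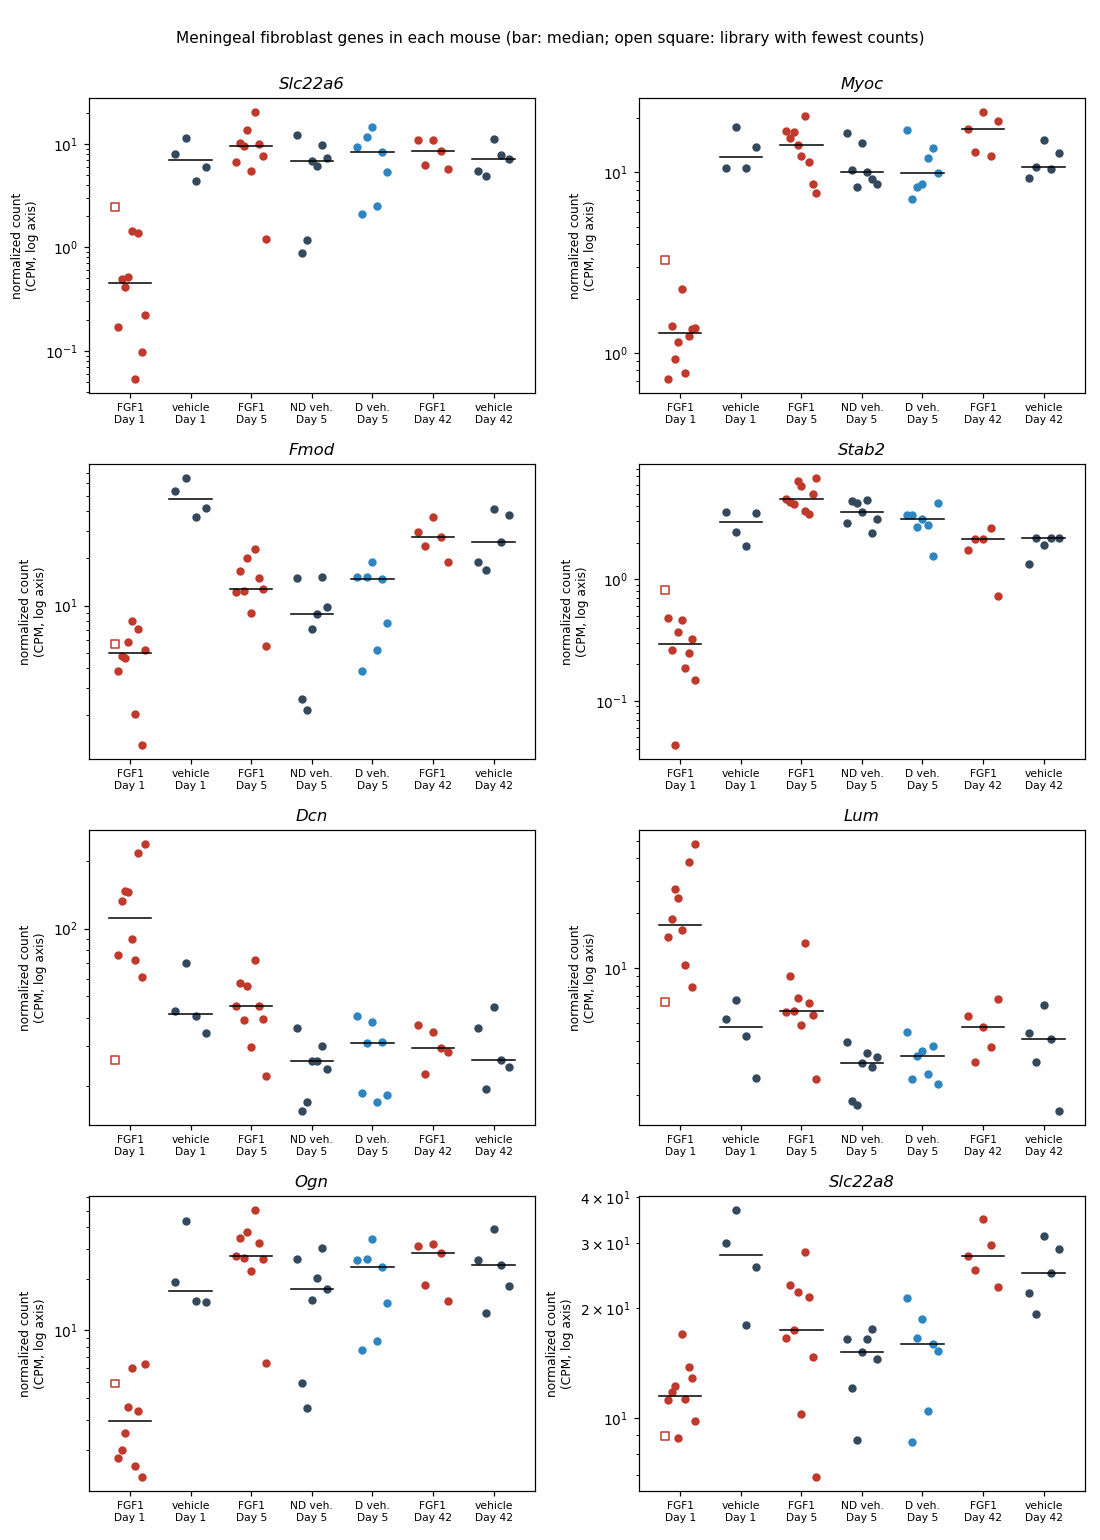
Normalized counts (CPM, log axis) of the 8 genes in each of the 47 mice, by group, with the median as a bar and the library with the fewest counts as an open square. ND veh. and D veh. are vehicle mice labelled non-diabetic and diabetic. On Day 1, 6 panels show FGF1 mice below all vehicle mice, and Dcn and Lum show most of them above.

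Dcn and Fmod moved apart on Day 1, and their ratio within a library does not depend on library scaling. Dcn counts per Fmod count ran from 0.800 to 1.12 in Day 1 vehicle mice and from 4.57 to 47.3 in FGF1 mice. Lum counts per Ogn count ran from 0.153 to 0.282 in Day 1 vehicle mice and from 1.33 to 11.2 in FGF1 mice. The lowest FGF1 value of both ratios came from the library with the fewest counts, and without it they began at 11.2 for Dcn per Fmod and at 2.66 for Lum per Ogn. On Day 5 the Dcn per Fmod ratio overlapped between the 3 groups, with medians of 3.17 in FGF1 mice, 2.93 in non-diabetic vehicle mice and 2.38 in diabetic vehicle mice. On Day 42 the medians were 1.08 in FGF1 mice and 1.09 in vehicle mice. These ratios use the contrast that chose the genes and carry no test.

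**Figure D2:**
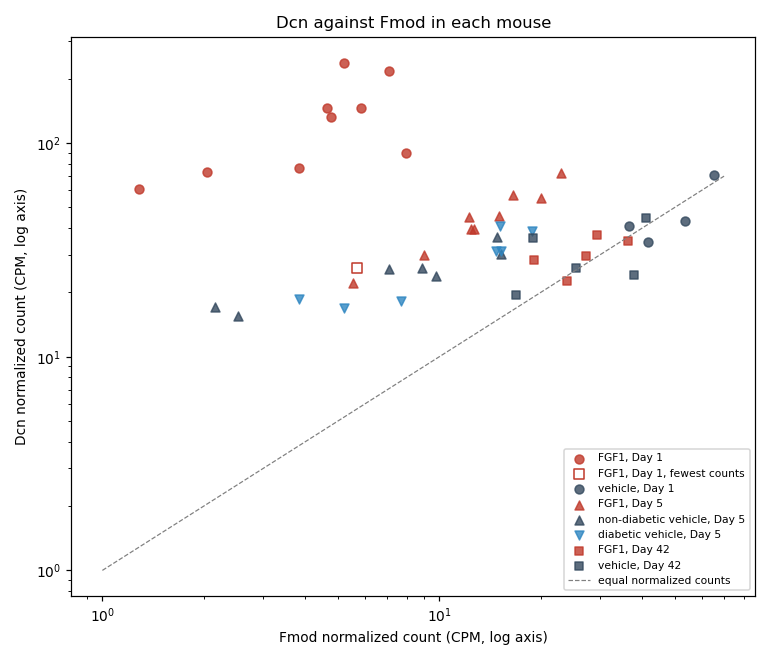
Dcn against Fmod in each mouse (normalized counts, CPM, both axes log), with the dashed line at equal values. Day 1 FGF1 mice lie at ratios of 4.57 to 47.3 (11.2 or more without the library with the fewest counts) and Day 1 vehicle mice close to the line at 0.800 to 1.12, whereas non-diabetic vehicle mice of Day 5 reach 7.86.

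Per kb of exon, the order of the genes differed between treated and control mice on Day 1. In vehicle mice, Fmod stood at 14.9 ± 3.89 (SD, n = 4) CPM per kb, followed by Ogn at 9.00 ± 5.41, Dcn at 8.08 ± 2.74, Slc22a8 at 7.08 ± 2.04 and Myoc at 6.37 ± 1.65, neighbours whose ranges overlapped. Lum at 1.91 ± 0.72, Slc22a6 at 1.87 ± 0.75 and Stab2 at 0.324 ± 0.094 were lower. The ranges of Myoc and Lum, and those of Slc22a6 and Stab2, did not overlap. In FGF1 mice, Dcn stood at 20.6 ± 11.7 (SD, n = 10) CPM per kb and Lum at 8.65 ± 5.50, ahead of Slc22a8 at 3.01 ± 0.62, Fmod at 1.46 ± 0.62 and Ogn at 1.31 ± 0.72, and the ranges of neighbours in this order overlapped. On Day 5 and Day 42, Ogn had the highest mean and Stab2 the lowest in each group.

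On Day 5 no member was called lower with FGF1. Against non-diabetic vehicle mice all 8 log2 FC were positive, with a median of 0.62 where all genes had a median of -0.01 and 47.8% of genes were positive. Lum was the 1 member called, with 1.54% of all genes called and 1.31% called higher. Lum had a mean of 6.71 ± 3.14 normalized counts (SD, n = 9) in FGF1 mice and 2.87 ± 0.795 (SD, n = 7) in non-diabetic vehicle mice. The lowest, median and highest FGF1 values were 2.47, 5.81 and 13.7 against 1.77, 3.01 and 3.92 in vehicle mice, so 8 of 9 FGF1 mice lay above every vehicle mouse. The log2 FC of Lum was 1.19 ± 0.36 (SE), with an edgeR adjusted p = 0.0435 and an exact two-sided permutation p = 0.0014. The call was lost in 11 of the 16 fits that left out 1 of these libraries, in which the edgeR adjusted p reached 0.123. Beside it, the summed level of the 12 leptomeningeal transporter and barrier genes ran from 297 to 459 in FGF1 mice and from 196 to 337 in non-diabetic vehicle mice, and that of the 3 border macrophage genes from 16.9 to 33.6 and from 12.7 to 20.5. Cldn11, a tight junction gene that oligodendrocytes also use in myelin, supplied 54.9% of the transporter sum in FGF1 mice, at 195 to 237 against 122 to 160, and the other 11 genes summed to 74.9 to 262 against 64.5 to 184. The part of these genes in the Lum difference was not tested. Without the pair of deep FGF1 libraries of Day 5, the log2 FC of Lum was 1.38 at an edgeR adjusted p = 0.0201.

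Dcn, the neighbour of Lum, had a mean of 45.2 ± 15.1 normalized counts (SD, n = 9) in FGF1 mice and 24.9 ± 7.20 (SD, n = 7) in non-diabetic vehicle mice. The FGF1 values were 22.2, 45.2 and 72.2 (lowest, median, highest) and the vehicle values 15.5, 25.9 and 36.2. Here 7 of 9 FGF1 mice lay above every vehicle mouse, with a log2 FC of 0.85 ± 0.28 (SE). Dcn missed the call at an edgeR adjusted p = 0.076, with an exact permutation p = 0.0049. The p fell under the threshold, at 0.0487, when the Day 1 library with the fewest counts was left out of the shared fit, at 0.0492 without the pair of deep FGF1 libraries of Day 5, and at 0.00726 when only Day 5 libraries were fitted. In 15 of the 16 fits that left out 1 of these Day 5 libraries Dcn was not called, and the edgeR adjusted p reached 0.175 without non-diabetic vehicle replicate 3.

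The other members overlapped more. Ogn had 29.3 ± 12.0 normalized counts in FGF1 mice and 16.8 ± 10.1 in non-diabetic vehicle mice, with a log2 FC of 0.79 (95% interval 0.05 to 1.53) and an edgeR adjusted p = 0.26. Fmod had 14.1 ± 5.33 and 8.65 ± 5.26, with a log2 FC of 0.69 (95% interval -0.00 to 1.38) and an adjusted p = 0.308 from edgeR. Slc22a6 had 9.47 ± 5.42 and 6.31 ± 4.13, with a log2 FC of 0.56 (95% interval -0.33 to 1.45). The log2 FC of Stab2 was 0.47 (95% interval 0.01 to 0.92), of Myoc 0.29 (-0.12 to 0.70) and of Slc22a8 0.29 (-0.11 to 0.70), and none of the 3 was called. In no member did every FGF1 mouse lie above every non-diabetic vehicle mouse, a pattern seen in 2.38% of all genes.

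Against diabetic vehicle mice, compared with the same 9 FGF1 mice, the 8 log2 FC were again positive, with a median of 0.42 where 48% of all genes were positive. Stab2 was the 1 member called, with 2.85% of all genes called and 2.36% called higher. Stab2 was at 3.46, 4.56 and 6.84 normalized counts (lowest, median, highest) in FGF1 mice and at 1.56, 3.11 and 4.24 in diabetic vehicle mice. Of the 9 FGF1 mice, 6 lay above every diabetic vehicle mouse. The log2 FC of Stab2 was 0.72 ± 0.23 (SE), with an edgeR adjusted p = 0.0355 and an exact permutation p = 0.00122, and the call was lost in 8 of the 16 fits that left out 1 of these libraries. It was lost without either of the deep FGF1 libraries, replicates 8 and 9, and without both the log2 FC was 0.62 at an edgeR adjusted p = 0.135. Stab1 and the border macrophage gene Mrc1 were called higher in the same comparison. The 3 border macrophage genes summed to 16.9 to 33.6 in FGF1 mice and 14.3 to 18.3 in diabetic vehicle mice, and the 12 transporter and barrier genes to 297 to 459 and 202 to 323 (74.9 to 262 and 80.1 to 196 without Cldn11). The part of these genes in the Stab2 difference was not tested.

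Lum lay just outside the threshold against diabetic vehicle mice, with a mean of 6.71 against 3.20 ± 0.784 normalized counts (SD, n = 7) and a log2 FC of 1.04 ± 0.35 (SE). Its edgeR adjusted p was 0.0503, 0.0246 without the pair of deep FGF1 libraries, and 0.0213 in DESeq2, with 8 of 9 FGF1 mice above every diabetic vehicle mouse. Lum was not called in 14 of the 16 fits that left out 1 of these libraries, in which the edgeR adjusted p reached 0.135 without FGF1 replicate 6. Dcn had a log2 FC of 0.69 ± 0.28 (SE) and an adjusted p = 0.118 from edgeR, which fell to 0.0161 with only Day 5 libraries. Ogn differed by 0.54, Myoc by 0.31, Slc22a6 by 0.28, Fmod by 0.28 and Slc22a8 by 0.21 on the log2 scale, and none was called. In no member did every FGF1 mouse lie above every diabetic vehicle mouse, against 3.63% of all genes.

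Whether the diabetic label itself went with these genes was asked by setting the 7 diabetic vehicle mice of Day 5 against the 7 non-diabetic ones. None of the 8 was called, and 0% of all genes were (0 genes also in DESeq2, with 193 genes at an unadjusted p under 0.05 in edgeR and 164 in DESeq2). The intervals were wide for the genes that varied most. The diabetic minus non-diabetic log2 FC was 0.41 (95% interval -0.33 to 1.14) for Fmod, 0.28 (-0.67 to 1.22) for Slc22a6, 0.25 (-0.54 to 1.04) for Ogn and -0.25 (-0.75 to 0.25) for Stab2. For Dcn, Lum, Slc22a8 and Myoc it was 0.16, 0.15, 0.08 and -0.02.

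By Day 42 no member was called, and 0% of all genes were (0 genes also in DESeq2, with 776 genes at an unadjusted p under 0.05 in edgeR and 781 in DESeq2). Slc22a6 was at 11.0, 6.25, 10.8, 8.56 and 5.66 normalized counts in the 5 FGF1 mice and at 5.46, 4.91, 11.1, 7.79 and 7.08 in the 5 vehicle mice. The groups overlapped throughout, with a log2 FC of 0.23 (95% interval -0.77 to 1.22). Fmod was at 29.3, 23.9, 36.4, 27.2 and 19.0 in FGF1 mice and at 19.0, 16.9, 41.2, 25.4 and 37.9 in vehicle mice, with a log2 FC of -0.04 (95% interval -0.78 to 0.69). Dcn, Ogn, Stab2 and Slc22a8 differed by 0.02, 0.06, -0.03 and 0.15, and Lum by 0.28 (-0.47 to 1.02).

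Myoc was the member with the largest Day 42 difference. It was at 17.4, 13.005, 21.7, 12.3 and 19.3 normalized counts in FGF1 mice and at 9.36, 10.7, 15.1, 10.4 and 12.8 in vehicle mice. Of the 5 FGF1 mice, 3 lay above every vehicle mouse and all 5 above the vehicle median. The log2 FC was 0.52 ± 0.23 (SE) and did not hold over all genes, at an edgeR adjusted p = 0.849. The exact permutation p for Myoc alone was 0.0476, where 5 mice against 5 allow no value below 0.00794, and it is 1 of 8 members tested on that day. In no member did every FGF1 mouse lie above every vehicle mouse on Day 42, against 0.0914% of all genes, and 44.9% of all genes were positive against 6 of the 8 members.

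The change of the FGF1 effect from Day 5 to Day 42 was tested directly, against the non-diabetic vehicle mice of each day. No member was called, where 0.717% of all genes were. The Day 42 minus Day 5 difference in log2 FC was -0.91 (95% interval -1.95 to 0.13) for Lum and -0.83 (-1.70 to 0.04) for Dcn. For Fmod, Ogn and Stab2 it was -0.73, -0.73 and -0.49, and for Slc22a6, Slc22a8 and Myoc -0.33, -0.14 and 0.23.

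**Figure D3:**
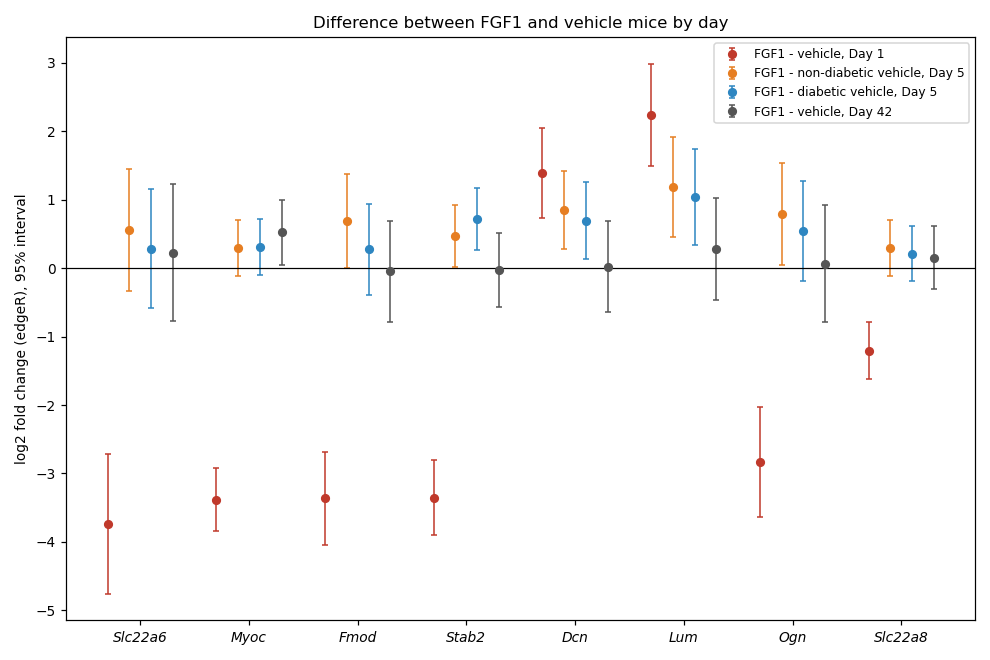
The log2 FC between FGF1 and vehicle mice from edgeR for each gene and day, with 95% intervals as bars. Slc22a6, Myoc, Fmod and Stab2 were selected on their Day 1 fold change, so the Day 1 intervals are a description and no test. The Day 1 values of 6 genes lie between -3.73 and -1.20 and those of Dcn and Lum at 1.39 and 2.24, and the Day 42 values lie between -0.04 and 0.52.

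Mice of one group differed widely in these genes, also on Day 5. Slc22a6 ran from 0.878 to 12.1 normalized counts among the 7 non-diabetic vehicle mice, from 2.10 to 14.7 among diabetic vehicle mice and from 1.20 to 20.5 among FGF1 mice. Non-diabetic replicates 2 and 3 were the lowest 2 of their group for Slc22a6 (0.878 and 1.18), for Fmod (2.52 and 2.16) and for Ogn (4.94 and 3.54). In the FGF1 group, replicate 9 was lowest for Slc22a6 at 1.20, for Fmod at 5.54, for Ogn at 6.49, for Dcn at 22.2 and for Lum at 2.47, whereas its Stab2 value of 6.84 was the highest of that group.

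This co-variation was described over the 47 libraries with each gene's group mean removed. Slc22a6, Fmod, Ogn and Slc22a8 varied together, with Pearson's r of 0.72 to 0.91 over their 6 pairs. Within Day 1 alone, without the library with the fewest counts, the tie to Slc22a8 was loose for Fmod (0.30) and Ogn (0.37), against 0.67 for Slc22a6. Within Day 5 the 6 pairs lay at 0.84 to 0.98. Dcn and Lum followed each other at 0.90 and followed those 4 genes at 0.42 to 0.61, although within Day 1 they stood at -0.01 and -0.02 with Slc22a8. Within Day 42, Lum stood at -0.07 with Fmod and -0.02 with Slc22a8, and the other 6 of the 8 pairs were positive. Myoc stood at 0.12 to 0.55 with the others except Stab2, and at 0.41 to 0.58 without the library with the fewest counts. Stab2 stood at -0.53 to -0.05 with the other 7 genes, but the sign differed by day. Within Day 5 it was negative with all 7, at -0.54 to -0.36, whereas with Slc22a6, Fmod and Slc22a8 it was positive within Day 1, at 0.24, 0.12 and 0.32, and within Day 42, at 0.39, 0.43 and 0.46. Libraries share depth and tissue sampling within a mouse, so these values are descriptive. Without the Day 1 library with the fewest counts, Dcn and Slc22a6 correlated at 0.72 in place of 0.44, and Dcn and Lum at 0.89.

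**Figure D4:**
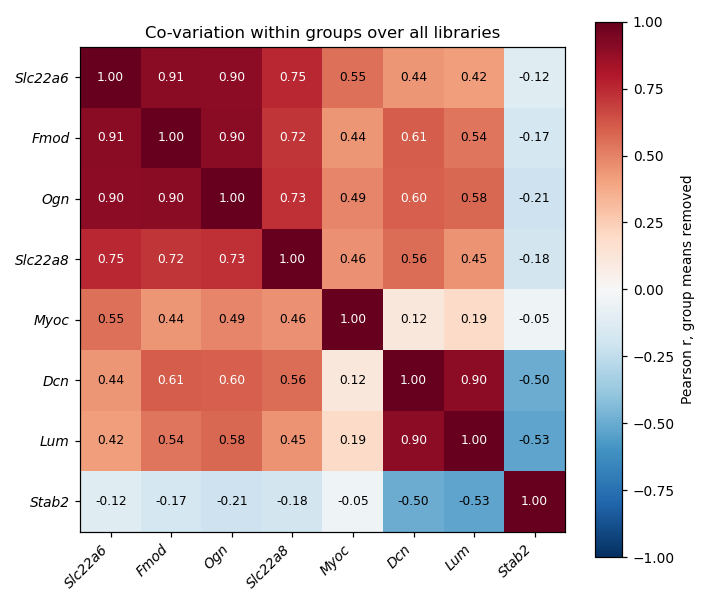
Pearson's r between members over 47 libraries, after each gene's group mean was removed from its log2(CPM + 0.5) values. Slc22a6, Fmod, Ogn and Slc22a8 form a block at 0.72 to 0.91, and Stab2 is negative with each other gene over the pooled days.

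The genes whose within-group pattern was most like the mean of the 8 members came mainly from the leptomeningeal lists, which held 7 of the first 10. In order of Pearson's r over the 47 libraries they were Slc6a13 (0.91), a GABA and taurine carrier, Slc13a4 (0.90), a sulfate carrier, H2-Q1 (0.89), Slc6a20a (0.89), a proline carrier, Cdh1 (0.87), Slc6a12 (0.86), Bmp6 (0.86), Osr1 (0.86), Ptgds (0.86) and Islr (0.86). H2-Q1, Slc6a12 and Bmp6 were on none of the lists. Without the Day 1 library with the fewest counts, 6 of these 10 genes were still among the first 10. The median r was 0.75 for the 12 leptomeningeal transporter and barrier genes, 0.74 for the 24 leptomeningeal secreted proteins and enzymes, 0.67 for 7 meningeal transcription factors and 0.58 for 12 fibroblast collagens. Among lists of other cell types it was 0.46 for 3 border macrophage genes, 0.39 for 8 pericyte and smooth muscle genes, 0.33 for 3 pars tuberalis and pituitary genes, 0.23 for 10 neuron genes, 0.14 for 5 sinusoidal and lymphatic genes, 0.09 for 9 brain endothelial genes and 0.03 for 7 choroid plexus genes. The other small leucine-rich proteoglycans had a median r of 0.26 and the other Slc22 carriers one of 0.19.

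Other genes of the same lining were described on Day 1, when 11.5% of all genes were called higher and 8.05% lower. Of 12 leptomeningeal transporter and barrier genes, 6 fell, 1 rose and 5 did not pass, with a median log2 FC of -0.65 where all genes had 0.01. Slc6a20a fell by 2.74 on the log2 scale, from 48.5 ± 19.4 (SD, n = 4) to 7.71 ± 3.09 (SD, n = 10) normalized counts, and Slc6a13 fell by 2.71, from 24.8 ± 6.51 to 3.87 ± 1.80. Slc13a4 fell by 1.96 and Cldn11, a tight junction gene, by 0.87. Of 24 leptomeningeal secreted proteins and enzymes, 6 rose and 5 fell, among them Angptl2 (2.67), Ranbp3l (-2.53) and Igf2 (-1.72), a growth factor.

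Of 12 fibroblast collagens, 5 rose and 0 fell, with Col3a1 at a log2 FC of 2.42 ± 0.40 (SE), from 8.09 ± 2.74 (SD, n = 4) to 41.7 ± 25.2 (SD, n = 10) normalized counts, followed by Col6a3 (1.32), Col6a1 (1.19) and Col6a2 (1.05). Of the 8 other small leucine-rich proteoglycans in the table, 2 rose and 2 fell. Omd, the neighbour of Ogn, fell by 2.97 on the log2 scale, from 2.00 ± 0.561 to 0.222 ± 0.15 normalized counts, and Ecm2 fell by 1.14. Bgn (biglycan) rose by 1.29 and Prelp, on the chromosome of Fmod, by 0.51. Aspn, which lies between Omd and Ecm2, had a log2 FC of 0.01 and Optc one of -0.42, and neither was called, while Kera and Epyc, which follow Lum, were not analysed here. Of the 7 other Slc22 carriers that were measured, 2 fell, Slc22a21 (-0.52) and Slc22a3 (-0.51). Of 7 meningeal transcription factors, Prrx1 rose by 0.96 and Osr1 fell by 1.35.

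**Figure D5:**
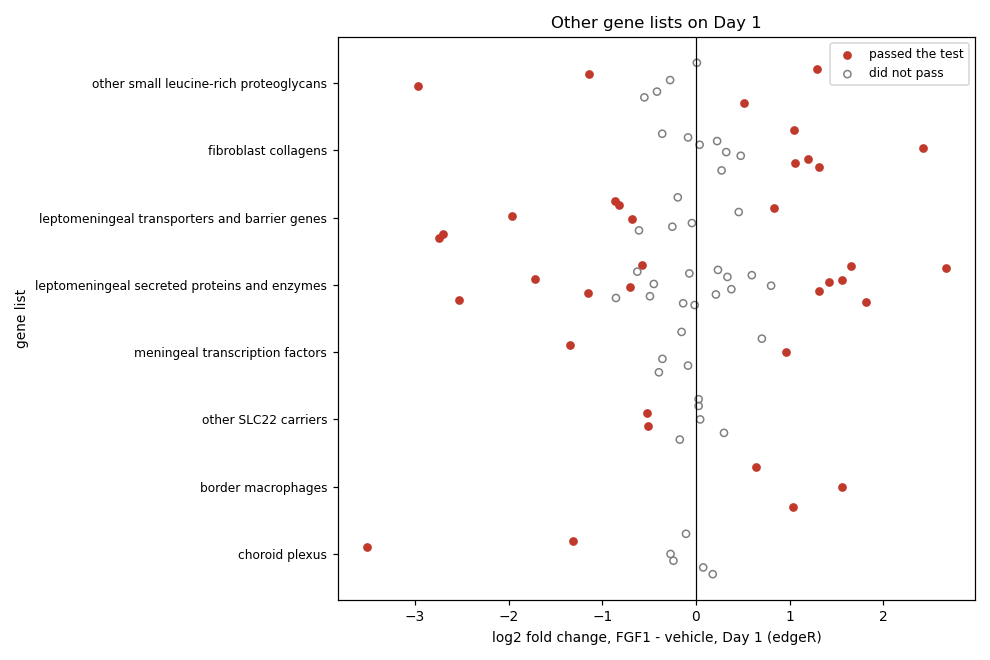
The log2 FC on Day 1 (FGF1 minus vehicle, edgeR) of the genes of 8 lists, one point a gene, filled where the gene passed the test. Fibroblast collagens that passed lie at 1.04 to 2.42, and among leptomeningeal transporter and barrier genes Slc6a20a and Slc6a13 lie lowest, at -2.74 and -2.71.

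Markers of other cell types were examined on Day 1 beside the 19.5% of all genes that were called. The 3 border macrophage genes in the table rose, F13a1 by 1.55, Mrc1 by 1.04 and Cd163 by 0.64, and their summed level ran from 5.70 to 39.9 in FGF1 mice and from 6.07 to 17.3 in vehicle mice, with a lowest FGF1 sum of 10.4 without the library with the fewest counts. Of 7 choroid plexus genes 2 fell, Kcnj13 by 3.51 and Clic6 by 1.31, and the sum of the 7 ran from 48.9 to 77.2 in FGF1 mice and from 70.4 to 95.9 in vehicle mice. Of 9 brain endothelial genes, Cdh5 (1.14) and Flt1 (0.63) rose and Slco1c1 (-0.52) fell, and their sum overlapped at 221 to 284 against 185 to 279. Stab1, the relative of Stab2 and 1 of 5 sinusoidal and lymphatic genes in the table, rose by 0.85 on Day 1, when Stab2 was lower. Of 8 pericyte and smooth muscle genes, Kcnj8 (1.12) and Tagln (1.00) rose and Myh11 (-1.01) and Vtn (-0.63) fell. Among 10 hypothalamic neuron genes Pomc rose by 1.71 and Pmch fell by 0.55. The sum of the 10 ran from 819 to 1223 in FGF1 mice and from 1219 to 1557 in vehicle mice. Pmch was the most abundant of the 10, at a mean of 401 normalized counts over all libraries. On Day 1, 4 of the 10 had a positive log2 FC, and the median was -0.07. The part of these cell types in the members' differences was not tested.

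On Day 5 no gene of these lists was called lower with FGF1, where 1.31% of all genes were called higher against non-diabetic and 2.36% against diabetic vehicle mice. Against non-diabetic vehicle mice 2 other proteoglycans rose and 0 fell, Prelp by 1.01 ± 0.14 (SE, edgeR adjusted p = 2.5e-06) and Ecm2 by 0.59, while Omd (-0.08), Aspn (0.11) and Optc (-0.18) did not pass. Slc6a13 rose by 1.02 (edgeR adjusted p = 0.0377) and Cldn11 by 0.61. Among secreted proteins Igf2 rose by 1.22, Islr by 1.05 (edgeR adjusted p = 0.0435), Cyp1b1 by 0.79 and Serping1 by 0.71. Stab1 rose by 0.53. All 24 secreted protein genes had a positive log2 FC, 5 of them called, where 47.8% of all genes were positive and 1.54% called. Against diabetic vehicle mice 22 of the 24 were positive and 2 called, where 48% of all genes were positive. On Day 42, 20 were positive, and between the vehicle groups of Day 5, without FGF1, 21 were higher in diabetic mice. These genes had a median within-group r of 0.74 with the members' mean, so their signs are not separate observations. Against diabetic vehicle mice Prelp rose by 1.19, Bgn by 0.85, Ecm2 by 0.64, Cldn11 by 0.72, Igf2 by 0.88, Aldh1a1 by 0.56, Stab1 by 0.59 and Mrc1 by 0.85. Slc6a13 (0.62), Islr (0.73), Cyp1b1 (0.59) and Serping1 (0.53) did not pass there, with edgeR adjusted p from 0.110 to 0.207. Without the pair of deep FGF1 libraries, Cldn11 was not called against non-diabetic vehicle mice, with a log2 FC of 0.58, nor Aldh1a1 against diabetic vehicle mice, with 0.52.

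None of the fibroblast collagens, meningeal transcription factors, Slc22 carriers, brain endothelial, pericyte, choroid plexus or neuron genes was called on Day 5 against either vehicle group, although without the pair of deep FGF1 libraries 2 fibroblast collagens were called against diabetic vehicle mice, Col3a1 (1.11) and Col5a2 (0.67), which are named after their values were seen. The most abundant genes of the lists without a call ran from -0.37 (Col6a1) to 0.82 (Mrc1) against non-diabetic vehicle mice and from -0.25 (Col6a1) to 0.18 (Prlr) against diabetic vehicle mice, with Zic1, Slc22a17, Flt1, Rgs5 and Pmch in between. Between the vehicle groups of Day 5 no list gene was called, and the most abundant genes of the lists ran from -0.19 (Prelp) to 0.34 (Ptgds). On Day 42 none was called either, and those of these genes that are reported here, with Cldn11 and Prox1 for their lists, ran from -0.13 (Mrc1) to 0.33 (Col6a1). For the change from Day 5 to Day 42 they ran from -0.95 (Mrc1) to 0.70 (Col6a1), again without a call.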

How the data were processed

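Raw gene counts of 47 hypothalamic libraries were used as deposited. Per the labels and methods, the authors prepared libraries with a stranded Illumina mRNA kit and aligned reads with STAR. The labels name the build GRCh38, which is a human build name although the samples are mouse, so coordinates here come from the reference annotation of GRCm38 and not from the files. The counting program and any filter were not given in the sources used here.

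Counts of all 14221 genes were fitted in edgeR (version 4.0.16, R 4.3.3) with TMM scaling, 1 mean per group over the 47 libraries, and Benjamini-Hochberg adjustment over all genes. The edgeR filter on low counts removed 0 genes. Fold changes come from that fit. A pseudocount of 0.5 CPM was used for logarithms, for two-sided exact permutation tests of single genes (SciPy 1.17.1) and for correlations. The pipeline was tested on simulated data. DESeq2 (version 1.42.0) and other settings were alternatives. Total counts per library ran from 1243280 to 47082403, and Poisson intervals cover counting error only.

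Replicate numbers follow accession order and only name mice. The members and gene lists were chosen with earlier results of these data known. Beside the members and their proteoglycan neighbours, the text names up to 4 called genes per list and comparison with the largest log2 FC, the most abundant gene of a list with no call, and the 10 genes most correlated with the members' mean. Slc6a12, Bmp6 and H2-Q1 entered only through that correlation. Some genes that this rule selects are not reported here.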

Additional observations from a re-analysis of the deposited data

Results flagged for a closer look

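Among the 56 groups of mice examined (8 genes in 7 groups), 1 value stood apart from the rest of its group by Dixon's criterion, which chance alone meets in about 1 of 20 groups. Ogn in the Day 1 vehicle mouse replicate 2 was at 43.7 normalized counts (1547 reads), against 19.1 in the next and 14.6 in the lowest of the 4 mice. The same mouse also held the highest Day 1 vehicle values of Slc22a6, Myoc, Fmod, Dcn, Lum and Slc22a8. Without it the Day 1 log2 FC of Ogn was -2.32 in place of -2.83.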

How the results depend on the processing

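No paired analysis was possible because the replicate numbers follow accession order and name no animal, litter or batch shared between groups. Under the other scalings, tests, filters and sets of libraries, the Day 1 log2 FC kept their sign in all 8 members. DESeq2 size factors in edgeR lowered the share of higher calls on Day 1 from 58.8% to 50.8%. With at least 10 counts in every library, 2 members (Dcn and Slc22a8) were left to test, and 1609 genes were called on Day 1, 136 on Day 5 against non-diabetic and 204 against diabetic vehicle mice. Without a threshold on the fold change these counts were 6396, 661 and 1310. With only Day 5 libraries, 370 genes and 2 members (Dcn and Lum) were called against non-diabetic and 3 members (Stab2, Dcn and Lum) against diabetic vehicle mice. With the vehicle groups of Day 5 merged, 372 genes and 3 members (Stab2, Dcn and Lum) were called. DESeq2 called 2 members (Stab2 and Lum) against diabetic vehicle mice. Without FGF1 replicates 8 and 9 of Day 5 together, an alternative chosen after seeing the data, 2 members (Dcn and Lum) were called against non-diabetic and 1 (Lum) against diabetic vehicle mice, and 65 genes were called for the change from Day 5 to Day 42. The cause of these shifts was not tested, except that the strict filter and the dropped threshold change how many genes can be called.

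Leaving out 1 library in turn, the members called on Day 5 ran from 0 to 2 against either vehicle group. Genes called ran from 2335 to 3088 on Day 1 (over the 4 vehicle mice and FGF1 replicate 1, the other FGF1 mice of Day 1 not being left out), from 169 to 250 and from 348 to 414 on Day 5 against non-diabetic and diabetic vehicle mice, from 0 to 31 on Day 42 (31 without FGF1 replicate 1) and from 56 to 149 for the change from Day 5 to Day 42. The Lum call against non-diabetic vehicle mice was lost without FGF1 replicate 2, 4, 6, 7 or 8 or without vehicle replicate 2, 3, 4, 5, 6 or 7, and over all fits the log2 FC lay between 0.99 and 1.32. The Stab2 call against diabetic vehicle mice was lost without FGF1 replicate 4, 5, 8 or 9 or without vehicle replicate 3, 4, 5 or 6, and over all fits the log2 FC lay between 0.61 and 0.82. Signs turned for some differences that were never called. On Day 42 the log2 FC ran from -0.10 to 0.21 for Dcn, from -0.10 to 0.31 for Ogn, from -0.18 to 0.14 for Fmod and from -0.18 to 0.15 for Stab2. Between the vehicle groups it ran from -0.16 to 0.11 for Myoc and from -0.020 to 0.180 for Slc22a8.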
